A study of Mus musculus with 18 samples.

Results

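Muscle ubiquitin ligases and atrophy genes were followed in the infarcted mouse heart over 3 days after the left anterior descending (LAD) artery was tied off. The set was a list of 10 named genes: the ubiquitin ligase genes Fbxo32, Trim63, Trim54, Trim55, Asb2, Fbxo40 and Klhl38, the transcription factors Foxo1 and Foxo3, and the growth inhibitor Mstn. All 10 were found among the 30583 genes of the deposited count table. The study used 12-week-old male C57BL/6JR mice, 3 per group, with 1 library per mouse. In 5 groups the LAD was ligated, which causes an infarct, and hearts were taken 10 min later, at 1 h or 6 h, or after 24 h or 72 h. The sham group (0 h) went through the same surgery with a suture passed but left untied, so all 6 groups share sodium pentobarbital anaesthesia, the operation, and isoflurane before death. RNA came from the infarcted region of the left ventricle. The labels also name cardiomyocytes as the cell type, but they describe no separation of cells, and markers of other cell types were present in every library, so the libraries are treated as whole tissue. No genotype or transgene is given.

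Muscle removes contractile protein largely through the ubiquitin–proteasome system, in which an E3 ligase chooses the substrate. FBXO32 (also called MAFbx) and TRIM63 (MuRF1) are the classical ligases of muscle wasting: their genes are switched on by FOXO transcription factors when insulin and Akt signalling is low, because Akt keeps FOXO proteins phosphorylated and outside the nucleus. Myostatin, the product of Mstn, is a secreted inhibitor of muscle growth of the TGF-beta family that acts through activin type II receptors. In the heart, FBXO32 and TRIM63 restrain hypertrophy, and the related proteins TRIM55 (MuRF2) and TRIM54 (MuRF3) sit with TRIM63 on the sarcomere and on microtubules.

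Promoter sequence was taken for the members whose time course or known regulation the results turn on. RefSeq promoter windows on GRCm38.p6 matched 7 of the 10 members, in 9 windows; Fbxo32, Trim55 and Klhl38 had no entry. The first line below is the 250 bases before the RefSeq start of Trim63, at chr4:134314870-134315119 on the plus strand, shown because Trim63 is a textbook FOXO target; capitals mark a match to the FOXO motif GTAAACA, read here on the opposite strand at positions -194 to -188 from the start. The next is the window before the upstream start of Asb2, which was lower from 6 h on, at chr12:103356002-103356251 on the minus strand; capitals mark a match to the CArG box, the motif of serum response factor, at -64 to -55. The line after it is the window before the upstream start of Fbxo40, a gene that fell from 24 h, at chr16:36990468-36990717 on the minus strand; capitals mark a match to the motif of MEF2 factors at -101 to -92. The last is the window of Trim54, which was higher at 6 h and lowest at 72 h, at chr5:31116362-31116611 on the plus strand, with no match to those motifs; its RefSeq start lies upstream of the GENCODE gene start.
Trim63: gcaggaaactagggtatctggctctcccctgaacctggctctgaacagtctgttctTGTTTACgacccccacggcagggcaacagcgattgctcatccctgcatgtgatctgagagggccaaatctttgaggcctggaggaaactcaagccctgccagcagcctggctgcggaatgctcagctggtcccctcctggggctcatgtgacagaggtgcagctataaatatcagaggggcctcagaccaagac
Asb2: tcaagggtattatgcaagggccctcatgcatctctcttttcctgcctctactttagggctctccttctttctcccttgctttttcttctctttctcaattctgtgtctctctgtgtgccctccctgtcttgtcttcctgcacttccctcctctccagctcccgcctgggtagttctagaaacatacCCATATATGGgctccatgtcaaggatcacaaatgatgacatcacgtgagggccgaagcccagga
Fbxo40: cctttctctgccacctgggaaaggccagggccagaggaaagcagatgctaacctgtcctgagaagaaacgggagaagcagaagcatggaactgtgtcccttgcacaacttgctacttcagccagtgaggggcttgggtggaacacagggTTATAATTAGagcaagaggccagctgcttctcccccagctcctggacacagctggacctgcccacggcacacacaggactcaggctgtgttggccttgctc
Trim54: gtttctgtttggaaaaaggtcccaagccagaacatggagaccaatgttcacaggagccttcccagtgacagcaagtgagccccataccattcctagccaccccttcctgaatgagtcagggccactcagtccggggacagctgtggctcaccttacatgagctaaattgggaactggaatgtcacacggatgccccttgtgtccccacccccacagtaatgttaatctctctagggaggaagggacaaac
Both strands were searched, without counting overlaps between motifs. Of 32536 mouse promoter windows of this length, 3.17% held GTAAACA, 2.89% the MEF2 motif and 1.48% the CArG box. The member windows not shown, those of Foxo1, Foxo3 and Mstn and the downstream windows of Asb2 and Fbxo40, held none of these motifs. The E-box CANNTG was in 66.2% of windows and in 7 of the 9 member windows listed here: those of Trim63, Trim54, Foxo1 and Mstn, the upstream window of Asb2 and both windows of Fbxo40. A match describes the letters and not a bound site.

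The 18 libraries held between 18.2 and 25.1 M counts. Levels are given as CPM, a gene's counts relative to its library's total, with the total scaled by the TMM method, which assumes that most genes do not change. Summed CPM of 12 cardiomyocyte markers ran from 69600 to 75500 in sham libraries, from 60100 to 73400 at 6 h, from 30800 to 46800 at 24 h and from 18200 to 24300 at 72 h. Over the same interval 8 macrophage markers went from between 370 and 429 CPM in sham to between 3960 and 5160 at 72 h, and 8 fibroblast markers from between 805 and 915 to between 12500 and 16100. The 6 neutrophil markers summed to at most 4.56 CPM in sham and to between 101 and 748 at 6 h. In bulk tissue, fewer cells of a type and less RNA per cell cannot be told apart. Markers of skeletal muscle, where these ligases are best known, were near the detection floor: 14 of them summed to between 4.56 and 7.02 CPM in sham and to at most 10.7 CPM in any library, with Myh1, Myh2, Myod1 and Myog at no more than 3 counts in each sham and 72 h library. Genes of the mitochondrial genome took between 23.8% and 26.1% of counts in sham libraries and between 8.41% and 10.5% at 72 h. With scaling to library totals in place of TMM the median change of all genes against sham was -0.12 (log2) at 6 h, 0.20 at 24 h and 0.61 at 72 h. Higher genes then made up 40.6% of calls in place of 57.2% at 6 h, 75.5% in place of 54.0% at 24 h and 79.9% in place of 51.4% at 72 h.

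No member was called in the first hour; the cullin adaptor gene Asb2 was lower and the MuRF gene Trim54 higher at 6 h, the latter not called with library totals (0.35, edgeR adjusted p = 0.0697). At 72 h all 9 tested members were lower with TMM scaling and 7 with library totals, where Foxo1 (0.06) and Foxo3 (-0.31) were not called. Genes were tested with edgeR's quasi-likelihood test on counts, all 18 libraries in 1 fit, and called at a Benjamini-Hochberg adjusted p under 0.05 over 16311 genes. Of the 10 members 9 passed the filter on low counts; Mstn did not. At 10 min against sham 0 of 9 were called by edgeR and 0 by DESeq2, beside 0.0736% of all genes, and 2 had an unadjusted p under 0.05, Foxo1 (0.00855) and Trim54 (0.0467). At 1 h edgeR and DESeq2 again called 0, beside 0.294% of genes, with Foxo3 at an unadjusted p of 0.0213. At 6 h edgeR called 2 of 9, beside 28.4% of genes (16.3% higher, 12.2% lower): Trim54 was higher and Asb2 lower. At 24 h it called 2 of 9, Asb2 and Fbxo40, both lower, beside 43.8% of genes in either direction and 20.2% in the lower direction. At 72 h all 9 tested members were called lower, beside 66.4% of genes in either direction and 32.2% in the lower direction, although with library totals Foxo1 and Foxo3 lost their call and Foxo1 its direction. The median log2 change of the 9 tested members was 0.08 at 10 min, -0.05 at 1 h, 0.16 at 6 h and then -0.30 (24 h) and -1.24 (72 h); that of all tested genes lay between -0.01 and 0.03. At 72 h the 9 tested members had no overlap with sham, all lower, where 36.5% of all genes were lower without overlap; Foxo1 is lower here on the TMM scale only. A test for any difference among the 6 groups called all 9, beside 78.4% of genes, by edgeR.

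**Figure D1:**
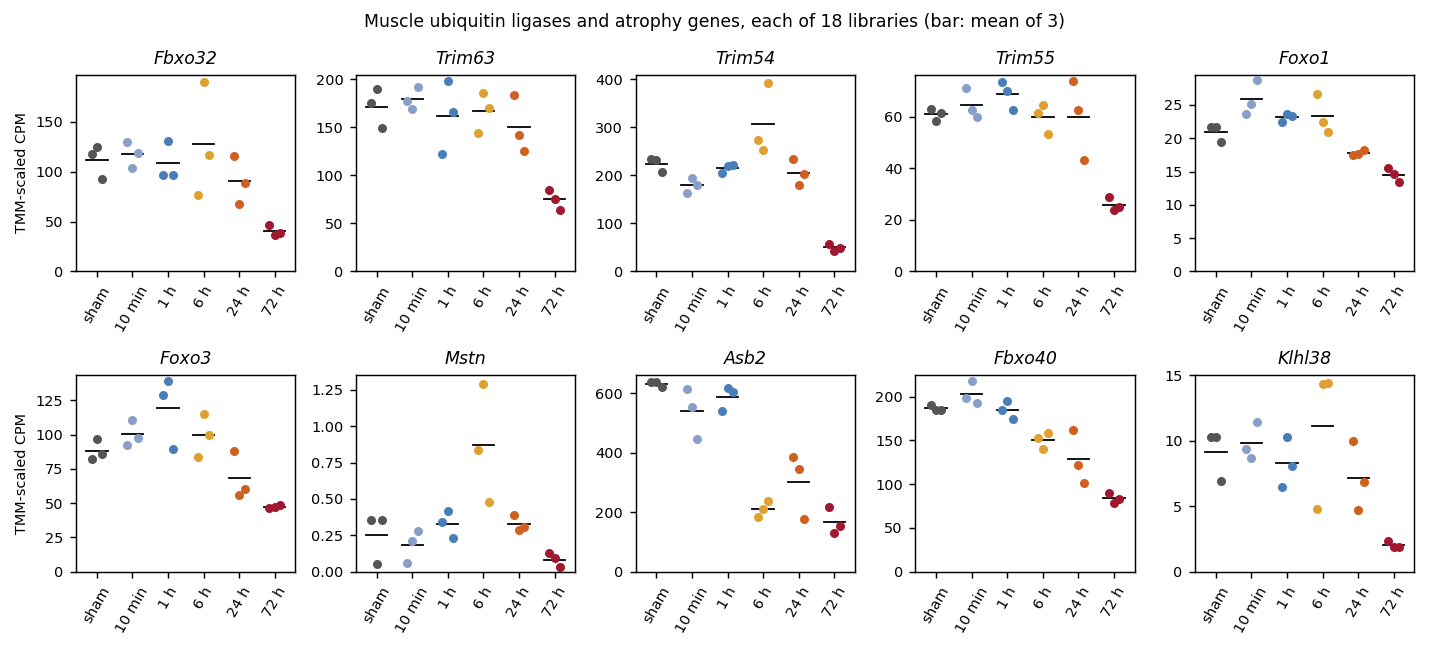
TMM-scaled CPM of the 10 genes (y axis, linear and starting at 0, separate scale per gene) in the 6 groups (x axis); each point is 1 mouse and each bar the mean of 3. Asb2 drops at 6 h, the single highest Trim54, Fbxo32 and Mstn values are 6 h libraries, and at 72 h the 9 tested genes sit below their sham points on this scale (Foxo1 turns to 0.06, log2, with library totals).

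FBXO32 is the F-box protein that brings substrates such as calcineurin to a CUL1 ligase. Fbxo32 (ENSMUSG00000022358, chromosome 15, 58175879 to 58214932, minus strand, GRCm38) stood at 118, 125 and 93.0 CPM in the 3 sham libraries. It read 130, 104 and 119 CPM at 10 min and 97.2, 131 and 97.0 CPM at 1 h, all within or near the sham range. The 6 h libraries spread widest, at 76.9, 190 and 117 CPM, on both sides of sham. At 24 h the values were 116, 67.6 and 88.8 CPM, and at 72 h they were 46.8, 36.6 and 38.7 CPM, every 72 h library below every other library. Against sham the change was 0.19 ± 0.26 (log2 ± SE) at 6 h, -0.30 ± 0.27 at 24 h and, by 72 h, -1.46 ± 0.27, and of these edgeR called the last alone (adjusted p = 0.000218), a 2.75-fold lower level. The 6 h estimate rested on replicate 2: without it the change was -0.21, with an edgeR adjusted p of 0.527. The lowest 6 h library, replicate 1, had the highest summed neutrophil markers of its group, 748 CPM against 268 in replicate 2 and 101 in replicate 3. It also had the lowest summed cardiomyocyte markers, 60100 CPM against 64000 in replicate 2 and 73400 in replicate 3. The part of either marker group in the spread was not tested.

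KLHL38 is a muscle Kelch-repeat protein from a family whose members serve as CUL3 adaptors. Its gene (ENSMUSG00000022357, chromosome 15, 58314573 to 58324169, minus strand) lies 99.6 kb from Fbxo32. Klhl38 stood at 10.3, 10.3 and 6.89 CPM in sham, at 4.77, 14.3 and 14.4 CPM at 6 h and at 2.37, 1.89 and 1.91 CPM at 72 h. The 6 h group again straddled sham, and the 72 h group lay below all others. Its fall at 72 h was 2.15 ± 0.36 on the log2 scale (edgeR adjusted p = 7.36e-05), 4.44-fold, and at 24 h its change of -0.36 ± 0.34 was not called.

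Fbxo32 and Klhl38 followed each other from library to library. Among all tested genes, Klhl38 had the highest Pearson correlation with Fbxo32 in log2 CPM over the 18 libraries (r = 0.972, Spearman rho = 0.909), ahead of Eci2 (r = 0.938), an enzyme of fatty acid oxidation, and Eif4a2 (r = 0.937), a translation initiation helicase. Ranked from Klhl38, the same 3 places went to Fbxo32 (0.972), Eif4a2 (0.962) and Eci2 (0.949). The libraries share group and depth, so the agreement was also taken without the 72 h group (r = 0.892, rho = 0.843, 15 libraries), without the 2 libraries farthest from the Fbxo32 median (r = 0.94, 16 libraries), and on deviations from group means (r = 0.874, rho = 0.856). These values reuse the libraries in which Klhl38 ranked first, and no other pair was taken in this way. They therefore describe the pair and do not set it apart. Over the 18 libraries Trim63 also correlated with Fbxo32 (r = 0.929) and with Klhl38 (r = 0.942). In both Fbxo32 and Klhl38 6 h replicate 1 was the lowest of its group. Fbxo32 and Klhl38 both share exon bases with the antisense gene Gm15943, which had between 3 and 22 counts per library. Klhl38 itself had between 80 and 298 counts at 6 h and between 60 and 75 at 72 h. Fbxo32 had between 1202 and 1484 at 72 h. The strand setting of the counting is not given, and the part of Gm15943 reads in the Klhl38 counts was not tested.

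**Figure D2:**
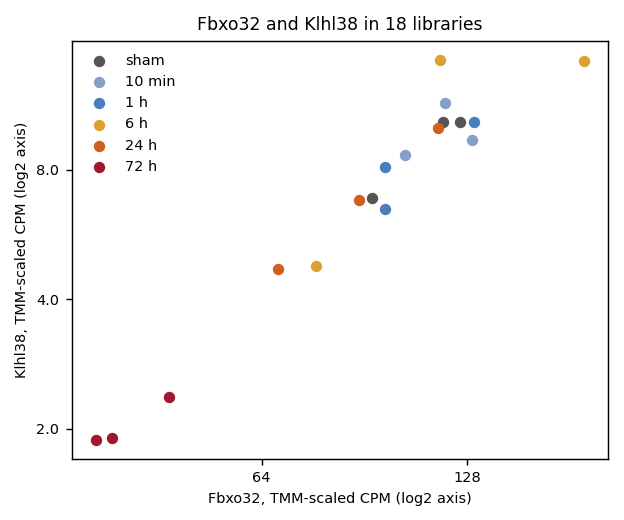
Klhl38 against Fbxo32, TMM-scaled CPM on log2 axes, 1 point per library (18), coloured by group. The 72 h libraries lie at the lower left and the remaining 15 still line up (r = 0.892).

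ASB2 is the SOCS-box adaptor of a CUL5 ligase that degrades filamins. Asb2 (ENSMUSG00000021200, chromosome 12, 103321142 to 103356001, minus strand) had 637, 637 and 620 CPM in sham, 616, 554 and 447 CPM at 10 min and 539, 617 and 606 CPM at 1 h. At 6 h it read 183, 212 and 237 CPM, below all sham, 10 min and 1 h libraries. It read 387, 344 and 178 CPM at 24 h and 216, 130 and 152 CPM at 72 h. The change against sham was -1.58 ± 0.23 at 6 h (edgeR adjusted p = 0.000133), a 3.00-fold lower level, -1.06 ± 0.23 at 24 h (edgeR adjusted p = 0.00149) and -1.93 ± 0.23 at 72 h (edgeR adjusted p = 1.58e-06). Between 6 h and 24 h the level was 0.52 ± 0.23 higher, which edgeR did not call (adjusted p = 0.096). At 24 h replicate 3, at 178 CPM, was below the 6 h libraries and the other 2 were above them; without replicate 3 the difference was 0.80 with an edgeR adjusted p of 0.0024. The same 24 h library had the highest summed neutrophil markers of its group, 744 CPM, and the lowest Fbxo40 and Trim55. It also had the lowest summed cardiomyocyte markers, 30800 CPM against 46800 in replicate 1 and in replicate 2. The part of either marker group in the Asb2 value was not tested.

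Filamins are the known substrates of ASB2. Flnc, filamin C of the Z-disc, went from 304 ± 21.8 CPM (SD, n = 3) in sham to 1660 ± 950 CPM at 6 h, a change of 2.45 ± 0.30 (edgeR adjusted p = 4.18e-05), and to 1180 ± 164 CPM at 24 h. Flna rose later, by 1.36 ± 0.18 at 72 h (edgeR adjusted p = 2.32e-06), when Flnc at 246 ± 26.6 CPM was not called. These are transcript levels; filamin protein was not measured here.

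FBXO40 is a muscle F-box protein that targets the insulin receptor substrate IRS1. Fbxo40 (ENSMUSG00000047746, chromosome 16, 36963460 to 36990467, minus strand) held 190, 185 and 185 CPM in sham, the tightest sham group of all members. It read 153, 140 and 158 CPM at 6 h, 162, 122 and 101 CPM at 24 h and 89.9, 78.3 and 83.1 CPM at 72 h. All libraries from 6 h on were below all sham libraries. The change was -0.31 ± 0.12 at 6 h (edgeR adjusted p = 0.07, not called), -0.54 ± 0.12 at 24 h (edgeR adjusted p = 0.00208) and -1.16 ± 0.13 at 72 h (edgeR adjusted p = 2.28e-07). The 6 h difference was called when library totals replaced TMM (-0.42, edgeR adjusted p = 0.0119), and also without 24 h replicate 1 or without 24 h replicate 3, libraries that enter it only through the shared spread.

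The MuRF genes share a RING finger and B-box architecture and act on sarcomere proteins and microtubules. Trim63 (ENSMUSG00000028834, chromosome 4, 134315120 to 134329629, plus strand) had 175, 190 and 149 CPM in sham, 144, 185 and 170 CPM at 6 h and 183, 142 and 125 CPM at 24 h, all overlapping. At 72 h it was at 85.1, 75.3 and 64.1 CPM, below all libraries of the other groups, a change of -1.19 ± 0.17 (edgeR adjusted p = 5.96e-06). No earlier contrast of Trim63 against sham exceeded 0.19 in size. The genes most like Trim63 over the 18 libraries were Ndufb4c (r = 0.962), Cd99l2 (r = 0.96) and Dnajc30 (r = 0.955), given as a description. Trim55 (ENSMUSG00000060913, chromosome 3, 19644474 to 19692421, plus strand) ran from 58.4 to 63.1 CPM in sham, from 43.3 to 74.0 CPM at 24 h and from 23.9 to 28.8 CPM at 72 h. Its change was -0.02 ± 0.14 at 24 h and -1.24 ± 0.14 at 72 h (edgeR adjusted p = 5.36e-07), so like Trim63 it was called lower at 72 h alone.

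Trim54 moved in both directions. Trim54 (ENSMUSG00000062077, chromosome 5, 31116712 to 31137630, plus strand) had 233, 231 and 206 CPM in sham and 164, 195 and 180 CPM at 10 min, below sham in all 3 mice but not called (-0.31 ± 0.15, edgeR adjusted p = 0.703). At 6 h it read 273, 253 and 392 CPM, above all sham libraries, a change of 0.45 ± 0.15 (edgeR adjusted p = 0.0275). That call depended on replicate 3: without it the change was 0.24 (edgeR adjusted p = 0.197). Without sham replicate 1, 2 or 3 the change was 0.49, 0.48 and 0.40, of similar size, with edgeR adjusted p of 0.0556, 0.0557 and 0.105. At 24 h Trim54 was back at 234, 179 and 203 CPM, and at 72 h it fell to 57.9, 42.2 and 49.3 CPM. That change was -2.17 ± 0.15 (edgeR adjusted p = 1.34e-09), a 4.49-fold fall. Klhl38 fell 4.44-fold and Asb2 3.81-fold (-1.93 ± 0.23) at 72 h. These falls were the largest among the members and do not differ beyond their errors. Trim54 shares exon bases with the antisense gene Gm15469, which had between 4 and 62 counts where Trim54 had between 1387 and 7356.

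The shares of the MuRF transcripts were compared within each library. Per kilobase of exon, Trim54 made up 65.2% ± 0.585 (SD, n = 3) of the summed Trim54, Trim63 and Trim55 level in sham, 71.9% ± 5.51 at 6 h and 48.9% ± 3.31 at 72 h. Trim63 made up 25.2% ± 1.39 in sham and 37.3% ± 3.42 at 72 h, and Trim55 9.66% ± 0.894 and 13.8% ± 0.417. These shares do not depend on the scaling of a library. At 72 h all 3 shares stood outside the sham range; an exact two-sided permutation test of 3 against 3 mice gave p = 0.1 for each, the smallest it allows. At 10 min the Trim54 share was 58.8% ± 3.01 and the Trim63 share 29.7% ± 2.25, also outside the sham range and with the same exact permutation p of 0.1. At 24 h the Trim54 share was 65.6% ± 3.89, against which the same exact permutation test gave p = 1.

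**Figure D3:**
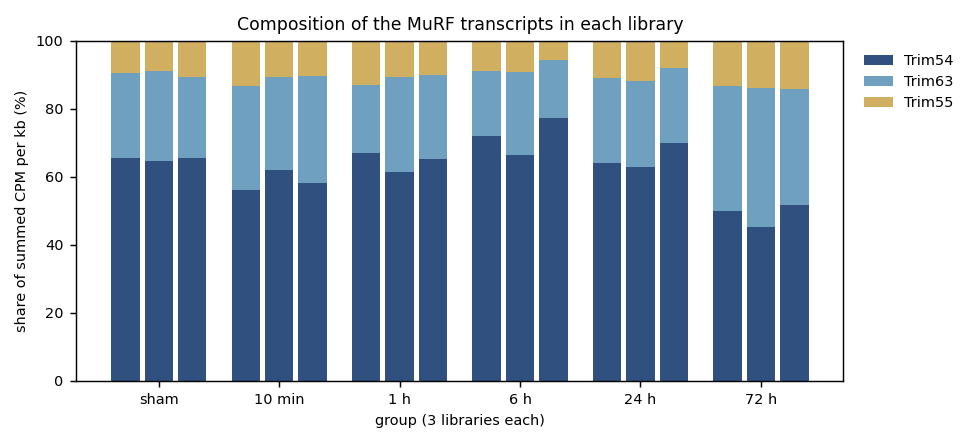
Share of Trim54, Trim63 and Trim55 in their summed CPM per kilobase (y axis, percent) in each of 18 libraries (x axis, 3 bars per group). Trim54 takes between 64.5% and 65.6% in sham and between 45.3% and 51.8% at 72 h.

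FOXO1 and FOXO3 are the forkhead factors that drive the atrophy ligases. Foxo3 (ENSMUSG00000048756, chromosome 10, 42181841 to 42276755, minus strand) had 82.2, 96.9 and 85.9 CPM in sham and 129, 139 and 89.6 CPM at 1 h, where replicate 3 stayed within sham (0.43 ± 0.17, edgeR adjusted p = 0.758). It read 88.4, 55.6 and 60.1 CPM at 24 h and 46.2, 47.3 and 48.9 CPM at 72 h. The 24 h change of -0.38 ± 0.17 was not called (edgeR adjusted p = 0.0833) but was called without 24 h replicate 1 (-0.60, edgeR adjusted p = 0.00488) and without 1 h replicate 3. At 72 h the change was -0.90 ± 0.17 (edgeR adjusted p = 0.000184), which with library totals was -0.31 and no longer called (edgeR adjusted p = 0.111).

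Foxo1 (ENSMUSG00000044167, chromosome 3, 52268336 to 52353221, plus strand) had the narrowest time course. It had 21.7, 21.7 and 19.5 CPM in sham, 23.6, 25.2 and 28.8 CPM at 10 min, 17.5, 17.7 and 18.3 CPM at 24 h and 15.6, 14.6 and 13.4 CPM at 72 h. The 10 min libraries were all above sham (0.30 ± 0.10) without a call (edgeR adjusted p = 0.49), and the 24 h and 72 h libraries were all below it. Its 72 h change of -0.53 ± 0.10 (edgeR adjusted p = 0.000178) reversed to 0.06 with library totals and to 0.04 and 0.05 with limma on the deposited FPKM, so its direction holds relative to the bulk of genes and not relative to the library total. Among the 3 genes closest to Foxo1 over the 18 libraries were Heca (r = 0.947) and St3gal6 (r = 0.93). Gm20402, antisense to Foxo1, had at most 1 count in a library.

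Mstn (ENSMUSG00000026100, chromosome 1, 53061640 to 53068079, plus strand) was near the limit of detection. It had 7, 1 and 8 counts in sham, between 1 and 5 at 10 min, between 4 and 7 at 1 h, 14, 27 and 9 at 6 h, between 6 and 9 at 24 h and 4, 3 and 1 at 72 h. In CPM the sham libraries were at 0.354, 0.0519 and 0.355 and the 6 h libraries at 0.834, 1.29 and 0.479, without overlap. In edgeR without the filter on low counts the 6 h change was 1.74 ± 0.56 (adjusted p = 0.0249) and the 72 h change -1.55 ± 0.71 (adjusted p = 0.0845). Without sham replicate 2, which held a single count, the 6 h change was 1.29 (edgeR adjusted p = 0.084). No genes were ranked by likeness to Mstn, since it did not pass the filter.

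**Figure D4:**
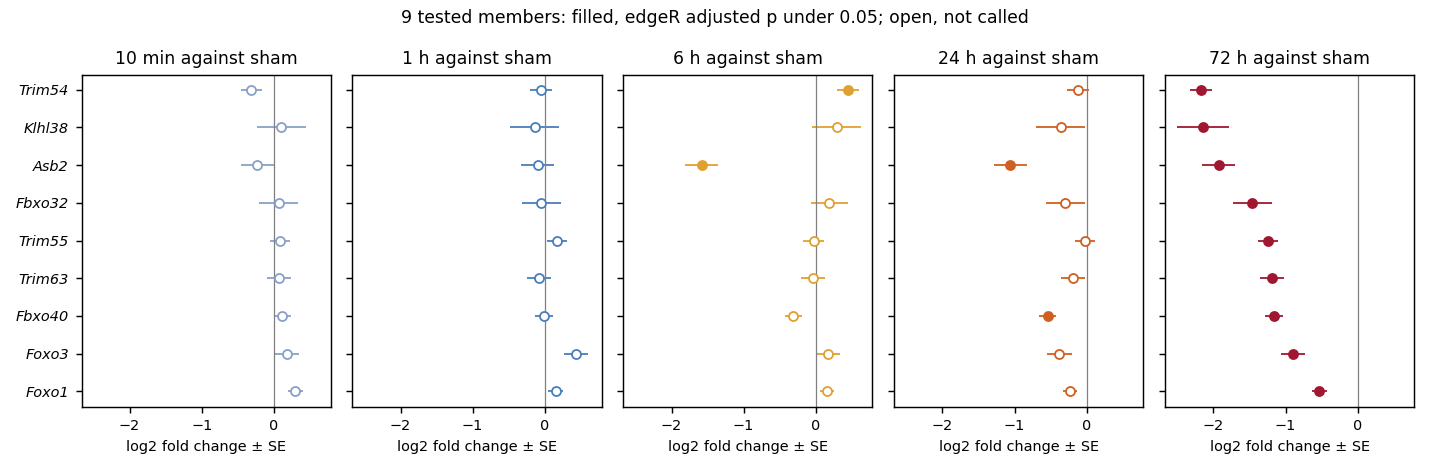
Change against sham (x axis, log2 fold change, bars ± SE from edgeR with TMM scaling) of the 9 tested members (rows) at 5 times (panels); filled points have an adjusted p under 0.05. The panels hold 2 filled points (6 h), 2 (24 h) and 9 (72 h), and the smallest of the 72 h changes, that of Foxo1, turns to 0.06 with library totals.

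Consecutive times were also compared. Between 10 min and 1 h edgeR called 0 of 9 members, with 0 at an unadjusted p under 0.05 and 0 by DESeq2, beside 0.307% of genes. From 1 h to 6 h it called Trim54 (0.51 ± 0.15, adjusted p = 0.0178) and Asb2 (-1.48 ± 0.23, adjusted p = 0.000326), beside 24.5% of genes; the Trim54 call was lost without 1 h replicate 1 or 6 h replicate 3. From 6 h to 24 h edgeR called 3 lower, Trim54 (-0.58 ± 0.15), Foxo3 (-0.55 ± 0.17) and Foxo1 (-0.39 ± 0.10), beside 27.8% of genes in either direction and 13.7% lower. Trim54 lost its call without 6 h replicate 3 (-0.36, edgeR adjusted p = 0.0577) and Foxo1 without 6 h replicate 1 (-0.28, edgeR adjusted p = 0.0555). Foxo3 lost its call without 6 h replicate 2 (-0.44) or 3 (-0.55) or 24 h replicate 2 (-0.42) or 3 (-0.47), with edgeR adjusted p between 0.057 and 0.105. With library totals 1 of the 9 was called in that step, and Trim54, Foxo3 and Foxo1 all lost their call. From 24 h to 72 h edgeR called all 9 lower, from -0.30 ± 0.10 for Foxo1 (0.09 with library totals) to -2.04 ± 0.15 for Trim54, beside 50.5% of genes in either direction and 26.1% lower. With library totals 5 were called in that step: Fbxo32, Trim63, Trim54, Trim55 and Klhl38. The Foxo1 call of that step was lost without 72 h replicate 3, and that of Foxo3 without 24 h replicate 1 or 72 h replicate 1.

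Per kilobase of exon, which allows levels to be set side by side between genes, Asb2 (178 CPM per kb) and Trim54 (156) led in sham, followed by Trim63 (60.3), Fbxo40 (33.8), Trim55 (23.0), Fbxo32 (16.2), Foxo3 (11.7), Klhl38 (4.14), Foxo1 (2.42) and Mstn (0.0938 CPM per kb). No 2 neighbours in this order overlapped in the 3 sham mice. At 6 h Trim54 came first at 213 CPM per kb, and Asb2 at 59.5 overlapped Trim63 at 58.5. Also overlapping at 6 h were Trim55 (22.5) with Fbxo32 (18.4), Fbxo32 with Foxo3 (13.2), and Klhl38 (5.03) with Foxo1 (2.70 CPM per kb). Trim54 was first again at 24 h, with 143 CPM per kb against 85.5 for Asb2, which overlapped Trim63 (52.7), and Fbxo40 (23.3), Trim55 (22.6) and Fbxo32 (13.1) each overlapped the next, the last of them Foxo3 (8.98). By 72 h Asb2 (46.8) overlapped Trim54 (34.7), Trim54 overlapped Trim63 (26.3 CPM per kb), and Foxo3 (6.27) overlapped Fbxo32 (5.87); no other neighbours did. Asb2 also led at 10 min (152) and 1 h (166 CPM per kb), where it overlapped Trim54 (125 and 150). Fbxo32, the classical wasting ligase, was not among the 4 highest of the set in any group.

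Since the cardiomyocyte markers fell too, each library was also scaled to the geometric mean count of the 12 cardiomyocyte markers (Myh6, Tnnt2, Tnni3, Actc1, Myl2, Myl3, Actn2, Ryr2, Ttn, Mybpc3, Pln and Ldb3). On this scale a value of 0 means that a gene changed as much as the geometric mean of those markers did. At 6 h Asb2 was lower (-1.43 ± 0.13, edgeR adjusted p = 2.48e-06) and Trim54 higher (0.60 ± 0.16, edgeR adjusted p = 0.0135), 2 of 9 called beside 16.5% of genes (12.4% higher, 4.05% lower); the Trim54 call was lost without sham replicate 1 or 3 or 6 h replicate 3. At 24 h edgeR called 5 of 9, beside 68.2% of genes (65.7% higher, 2.5% lower): Trim55 (0.68 ± 0.14), Trim54 (0.64 ± 0.16), Trim63 (0.54 ± 0.17) and Foxo1 (0.53 ± 0.19) higher and Asb2 (-0.38 ± 0.13) lower. The Asb2 call was lost without 24 h replicate 3 (adjusted p = 0.0892 in edgeR) and that of Foxo1 without sham replicate 3 or 24 h replicate 3. Fbxo32 and Foxo3 were each called higher at 24 h once 24 h replicate 2 was left out.

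At 72 h 5 members were called higher than the geometric mean of the markers, 1 was called lower and 3 were not called. Single markers differed from that mean. With TMM scaling Actc1 changed by -1.19 and Myl2 by -2.32 at 72 h, beside -1.24 for Trim55 and -2.17 for Trim54. A member called higher or lower here is therefore not above or below every marker. Relative to the markers Fbxo32 was at 0.29 ± 0.26, Klhl38 at -0.40 ± 0.33 and Asb2 at -0.20 ± 0.13, none called by edgeR. Foxo1 (1.23 ± 0.19), Foxo3 (0.88 ± 0.20), Fbxo40 (0.60 ± 0.13), Trim63 (0.56 ± 0.17) and Trim55 (0.52 ± 0.14) were called higher, with edgeR adjusted p between 4.28e-06 and 0.00367. Trim54 alone was called lower than the marker mean (-0.42 ± 0.16, edgeR adjusted p = 0.019), a call lost without sham replicate 2 or 72 h replicate 2. These 6 of 9 compare with 89.6% of all genes called on this scale, 88.2% higher and 1.34% lower. The median of the 9 members was 0.52 and that of all genes 1.79 (log2).

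**Figure D5:**
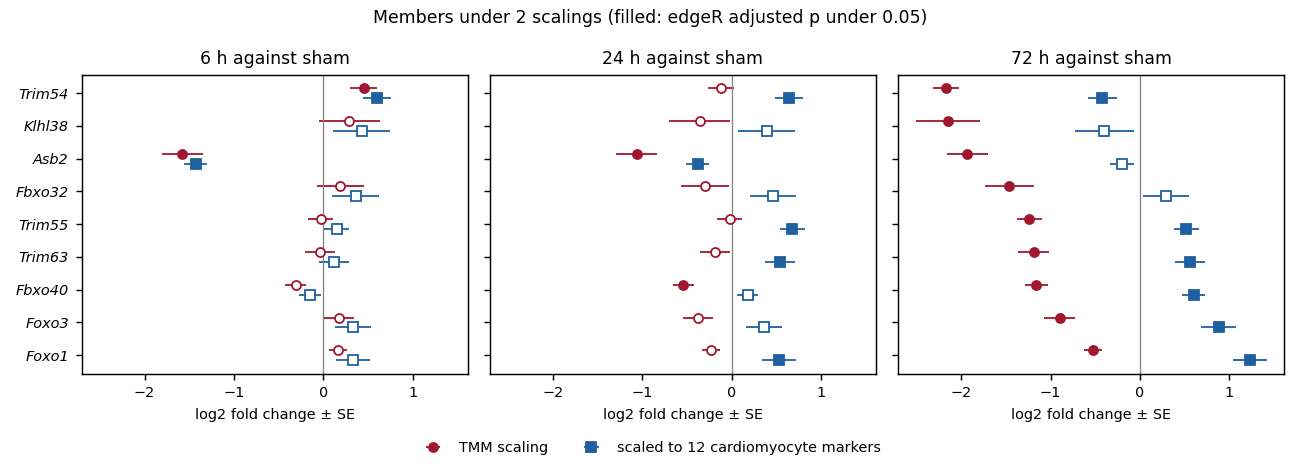
Change against sham (x axis, log2 fold change ± SE) of the 9 tested members (rows) at 6, 24 and 72 h with TMM scaling (circles) and with libraries scaled to 12 cardiomyocyte markers (squares); filled symbols have an edgeR adjusted p under 0.05. At 72 h the circles lie between -2.17 and -0.53 (Foxo1 turns to 0.06 with library totals) and the squares between -0.42 and 1.23.

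Other ubiquitin ligase genes of muscle were called in both directions at 6 h and mostly lower at 72 h. Of 24 listed ligase genes, all tested, edgeR called 0 at 10 min and at 1 h, 5 higher and 7 lower at 6 h, 4 higher and 12 lower at 24 h, and 1 higher and 19 lower at 72 h, where the median change was -1.29. Over all genes edgeR called 0.0736% at 10 min, 0.294% at 1 h and 28.4% at 6 h (16.3% higher, 12.2% lower). At 24 h it called 43.8% (20.2% lower) and at 72 h 66.4% (32.2% lower), shares that also apply to the lists below. With library totals 4 of the 24 listed genes were higher and 9 lower at 6 h. The split was then 5 higher and 8 lower at 24 h, and 5 higher and 16 lower at 72 h. The 5 higher at 6 h with TMM scaling were Klhl40, Klhl41, Cblb, Fbxo30 and Traf6, the last not called with library totals (0.37, edgeR adjusted p = 0.101). Klhl40, a stabiliser of thin-filament proteins mutated in nemaline myopathy, went from 15.8 ± 0.937 CPM (SD, n = 3) in sham to 93.4 ± 66.4 at 6 h and 6.38 ± 0.208 at 72 h, and Klhl41 from 63.9 ± 4.29 to 219 ± 89.7 and 30.3 ± 3.35. Both were called higher at 6 h and 24 h and lower at 72 h by edgeR (Klhl40 at 72 h not with library totals, -0.72, adjusted p = 0.0683), and Cblb and Fbxo30 were the other 2 higher at 24 h. Cblb, a ligase for receptors and signalling adaptors, was the gene still higher at 72 h (0.82 ± 0.18, edgeR adjusted p = 0.000525). The smallest edgeR adjusted p at 72 h belonged to Asb8 (-1.28 ± 0.10), the mitochondrial ligase Mul1 (-1.16 ± 0.10) and Fbxo31 (-1.87 ± 0.18).

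Scaffold, adaptor and E2 genes serve many ligases. Of 15 such genes edgeR called 2 higher (Ube2j1 and Ube2d3) and 1 lower (Ube2d1) at 6 h, 2 higher (Ube2j1 and Ube2d3) and 2 lower (Cul3 and Ube2d1) at 24 h, and 1 higher (Ube2j1) and 9 lower at 72 h, with a 72 h median of -0.30. Over all genes 66.4% were called at 72 h, 32.2% lower. With library totals the split of this list was 5 higher and 0 lower at 24 h and 10 higher and 1 lower at 72 h. This list therefore has no direction that holds under both scalings. Cul3, the scaffold used by Kelch adaptors, fell from 106 ± 4.7 CPM to 58.2 ± 1.61 at 72 h (-0.86 ± 0.08, edgeR adjusted p = 2.35e-08). Cul5, the scaffold used by ASB2, fell from 45.5 ± 1.35 to 30.2 ± 1.49 CPM (-0.59 ± 0.09, edgeR adjusted p = 1.25e-05), and Ube2d1 from 35.2 ± 2.31 to 21.1 ± 0.312 CPM (-0.73 ± 0.10), both on the TMM scale. With library totals Cul3 was still called lower (-0.27, edgeR adjusted p = 0.00533), whereas Ube2d1 (-0.15, edgeR adjusted p = 0.251) and Cul5 (edgeR adjusted p = 0.988) were not.

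Upstream of FOXO, 17 insulin, PI3K and Akt genes had 2 called higher at 1 h, 8 higher and 2 lower at 6 h, 4 higher and 2 lower at 24 h, and 3 higher and 6 lower at 72 h by edgeR, with a 6 h median of 0.17. The 2 at 1 h were Sgk1, a kinase that like Akt phosphorylates FOXO proteins, and Irs2, an insulin receptor substrate. Sgk1 went from 67.1 ± 0.645 CPM in sham to 186 ± 24.5 at 1 h (1.47 ± 0.15, edgeR adjusted p = 9.86e-05) and 163 ± 28.4 at 6 h, and was at 54.6 ± 3.08 at 72 h. Irs2 went from 13.4 ± 1.39 to 42.8 ± 15.9 and 44.0 ± 13.2 CPM at the same times. Foxo6, the FOXO paralogue of low level here, fell from 9.01 ± 1.53 CPM to 1.36 ± 0.666 at 6 h (-2.70 ± 0.53, edgeR adjusted p = 0.0017), and Foxo4 fell by 1.00 ± 0.11 at 72 h (edgeR adjusted p = 1.61e-07). Ywhaz, which encodes a phospho-binding protein that retains FOXO in the cytoplasm, rose from 81.4 ± 0.752 to 124 ± 20.2 CPM at 6 h (0.60 ± 0.12, edgeR adjusted p = 0.00121). The genes called at 24 h were Irs2, Ywhaz, Pdpk1 and Ywhab, higher, and Foxo6 and Foxo4, lower; the 3 higher at 72 h were Ywhaz, Ywhab and Igf1, and Foxo6 and Akt1 were the 2 lower at 6 h. Igf1 rose from 9.19 ± 0.732 to 79.6 ± 7.98 CPM at 72 h. Over all genes 28.4% were called at 6 h and 66.4% at 72 h. With library totals the 72 h split of this list was 10 higher and 2 lower, and without the filter on low counts its 6 h total was 6 called in place of 10.

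Genes known to follow FOXO in wasting muscle were tested as 19 autophagy and metabolic genes besides the ligases. By edgeR 1 was higher at 1 h (Cited2), 6 were higher and 1 lower (Atg12) at 6 h, 2 higher (Pdk4 and Eif4ebp1) and 4 lower (Pink1, Map1lc3b, Ulk1 and Sesn1) at 24 h, and 3 higher (Ctsl, Ccng2 and Sesn3) and 8 lower at 72 h, with a median of 0.18 at 6 h and -0.28 at 72 h. Pdk4, which limits pyruvate oxidation, went from 135 ± 30.5 CPM in sham to 2510 ± 389 at 6 h (4.21 ± 0.56, edgeR adjusted p = 0.000149) and 63.5 ± 5.7 at 72 h. Ctsl, a lysosomal protease, rose to 440 ± 15.8 from 156 ± 3.15 CPM at 72 h, beside the macrophage markers given above, whose part in the Ctsl rise was not tested. Pink1, a mitophagy kinase, fell from 732 ± 52.0 to 190 ± 32.2 CPM (-1.95 ± 0.14, edgeR adjusted p = 2.19e-09), and Map1lc3b fell by 0.84 ± 0.10 (edgeR adjusted p = 9.47e-07). Over all genes 43.8% were called at 24 h (20.2% lower) and 66.4% at 72 h (32.2% lower). With library totals the split of this list was 10 higher and 2 lower at 24 h and 11 higher and 4 lower at 72 h.

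Glucocorticoid signalling is another known inducer of Fbxo32 and Trim63, through the glucocorticoid receptor and KLF15. Of 11 genes of this axis edgeR called 1 higher at 1 h (Cebpd), 6 higher and 2 lower at 6 h, 3 higher (Cebpd, Cebpb and Fkbp5) and 2 lower at 24 h, and 1 higher (Cebpd) and 7 lower at 72 h, with a median of 0.68 at 6 h and -1.01 at 72 h. Fkbp5, a target of the receptor, went from 22.4 ± 4.04 CPM to 214 ± 30.9 at 6 h and 72.8 ± 32.6 at 24 h. The 6 higher at 6 h were Fkbp5, Cebpd, Cebpb, Ddit4, Zbtb16 and Per1, the last not called with library totals (0.56, edgeR adjusted p = 0.0604). Klf15 and Tsc22d3 were not called at 6 h. At 72 h both were called lower, with TMM scaling (-2.39 and -1.15) and with library totals (-1.8 and -0.56). The genes of the glucocorticoid receptor (Nr3c1) and of the mineralocorticoid receptor (Nr3c2) were the 2 lower at 6 h and at 24 h. On the TMM scale Nr3c1 changed by -0.58 at 6 h. Under library totals Nr3c1 was not called at 24 h (-0.22, edgeR adjusted p = 0.0832) or at 72 h (0.13, edgeR adjusted p = 0.235). Nr3c2 fell from 26.6 ± 2.57 to 8.64 ± 2.64 CPM at 6 h (-1.61 ± 0.20, edgeR adjusted p = 2.32e-05) and to 4.59 ± 0.195 at 72 h. Over all genes 28.4% were called at 6 h and 66.4% at 72 h. With library totals 3 of the 11 listed genes were higher and 6 lower at 72 h, with a median of -0.42. Per1 (-2.01 ± 0.23) and Bcat2 (-1.01 ± 0.13) had the next smallest edgeR adjusted p at 72 h. At 6 h, when 6 genes of this list were called higher, Fbxo32 (from 76.9 to 190 CPM) and Trim63 (from 144 to 185 CPM) were not called. Any link between this axis and these 2 ligase genes was not tested.

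In the myostatin and activin pathway, set beside the 28.4%, 43.8% and 66.4% of all genes called at 6 h, 24 h and 72 h, 19 of 20 listed genes were tested. By edgeR 6 were higher and 2 lower (Tll2 and Gdf11) at 6 h, 8 higher and 2 lower (Wfikkn2 and Acvr2b) at 24 h, and 12 higher and 4 lower at 72 h (Wfikkn2, Tll2, Acvr2b and Acvr2a, the last at 0.02 and not called with library totals), with a median of 0.24, 0.29 and 0.95; with library totals the 72 h split was 15 and 2. Fstl1, a follistatin-like secreted glycoprotein, went from 92.3 ± 13.3 to 931 ± 67.7 CPM at 72 h (3.33 ± 0.16, edgeR adjusted p = 1.01e-11), the protease gene Bmp1 from 43.4 ± 4.73 to 185 ± 9.89 CPM and Ltbp3 from 48.7 ± 2.56 to 126 ± 1.89 CPM, at the time when fibroblast markers were also at their highest; the part of fibroblasts was not tested. Acvr2b, the type II receptor of myostatin, fell from 3.88 ± 0.569 to 1.78 ± 0.418 CPM (-1.12 ± 0.23, edgeR adjusted p = 0.000239), which with library totals was -0.55 (edgeR adjusted p = 0.0519). The activin subunit gene Inhba and the antagonist gene Fst, chosen after their values were seen, changed by 3.85 ± 0.64 and 4.07 ± 0.50 at 6 h (edgeR adjusted p = 0.000657 and 2.25e-05).

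Known substrates and sarcomere partners of the ligases were called lower in 14 of 21 cases at 72 h with TMM scaling, beside 32.2% of all genes. Over the time course edgeR called 4 higher and 0 lower at 6 h (Des, Flnc and Irs1 among them), 5 higher (Vim, Flna, Des, Myh7 and Flnc) and 8 lower at 24 h, and 2 higher (Vim and Flna) and 14 lower at 72 h, with a 72 h median of -0.60. Of those lower at 72 h, Myh6, Mybpc3, Tnni3, Tnnt2, Myl2, Myl3, Actc1, Ttn and Actn2 are also among the 12 cardiomyocyte markers. Myl2, the ventricular regulatory light chain, went from 8280 ± 454 to 1660 ± 339 CPM at 72 h, Ckm, muscle creatine kinase and a MuRF1 partner, from 1150 ± 38.8 to 216 ± 65.9 CPM, and Vim from 171 ± 22.7 to 1120 ± 66.4 CPM. With library totals the 72 h split was 5 higher and 10 lower. Des, Sqstm1, Nbr1 and Eif3f, called lower with TMM, were then at 0.18, 0.22, 0.04 and 0.3. Of these Eif3f was called higher (edgeR adjusted p = 0.0134) and the others were not called.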

How the data were processed

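The 10 members and all gene lists were chosen with earlier results of these data known. Poly(A) RNA-seq of 18 mouse hearts was used as deposited: the authors' table of raw read counts per Ensembl gene (30583 genes, used for all main tests) and the authors' deposited FPKM values (used as an alternative). Per the submitters' processing notes, cutadapt 1.18, HISAT2 2.1.0, featureCounts and the mm10 build were used; annotation and strand setting are not given in the sources used here. The FPKM columns named 6 h replicates 2 and 3 each held values that follow the other's counts and were exchanged back. Exon lengths and positions came from GENCODE M21 on GRCm38, which matched 30512 IDs; the FPKM-implied length equalled the exon length for 91.9% of them.

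Counts were filtered with filterByExpr (16311 genes kept, 14272 removed), scaled by TMM and fitted with edgeR 4.0.16 (glmQLFit robust, glmQLFTest, two-sided) under R 4.3.3 in 1 model with a mean per group; p-values were Benjamini-Hochberg adjusted over all genes and called under 0.05. A second fit scaled libraries to the geometric mean count of 12 cardiomyocyte markers. Likeness used log2 CPM with a prior count of 2. Alternatives were library totals, RLE scaling, no filter, at least 10 counts in every library, DESeq2 1.42.0, limma 3.58.1 on log2(FPKM + 1) and log2(FPKM + 0.1), a replicate block, fits of the 6 compared libraries, the summed count of the markers, and leaving out each library. The pipeline was tested on simulated counts. All contrasts against sham share its 3 libraries, so they are not independent. The edgeR p-values judge differences between group means against the spread between libraries. Besides the members, each list's named genes are first its 3 lowest adjusted p-values at whichever time gave the list its most calls. Genes behind counts of 5 or fewer are also named. So are genes that the text says were chosen after their values were seen. That also holds for Flnc, Flna, Sgk1, Foxo4, Igf1, Pdk4, Fkbp5 and Acvr2b where outside that rule. Klf15, Tsc22d3, Ddit4, Per1 and Zbtb16 at 6 h or 72 h were likewise named with their values known. The 3 genes most alike by r were named for Fbxo32, Trim63, Foxo1 and Klhl38. Some genes that this rule selects are not reported here. The labels' protocols describe PCR and no molecular identifiers, so copies of a molecule may count as separate reads.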

Additional observations from a re-analysis of the deposited data

How the results depend on the processing

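The count of members called changed by more than 1.5 times under few settings. At 10 min it was 1 in place of 0 when only the 6 libraries compared were fitted (Trim54, -0.32, edgeR adjusted p = 0.0373). From 6 h to 24 h it was 3 in the main analysis, 1 with library totals, 1 with limma on log2(FPKM + 1), 1 with limma on log2(FPKM + 0.1) and 0 with the 6 libraries alone. From 24 h to 72 h it was 9, and 5 with library totals and with either limma fit. At 72 h against sham it was 7 with library totals and with either limma fit. The list upstream of FOXO had 10 genes called at 6 h and 6 without the filter. Leaving out each library in turn gave 0 to 0 members for 10 min and for 1 h, 1 to 4 for 6 h, 2 to 3 at 24 h, 9 to 10 at 72 h, 0 to 0 from 10 min to 1 h, 1 to 3 from 1 h to 6 h, 2 to 4 from 6 h to 24 h, 8 to 10 from 24 h to 72 h and 9 to 10 at any time; relative to the markers it gave 1 to 3 at 6 h, 3 to 7 at 24 h and 5 to 6 at 72 h. Counts of 10 include Mstn, which passes the filter in some of these fits.

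Changes that reversed sign were uncalled and near 0, except for Foxo1. Foxo1 at 72 h against sham was 0.06 with library totals and 0.04 and 0.05 with limma (pseudocounts 1 and 0.1), and against 24 h 0.09, 0.06 and 0.09. At 24 h Trim54 was 0.07, 0.06 and 0.06 and Trim55 0.17, 0.13 and 0.13 under the same settings, and Trim55 was 0.000788 without sham replicate 1 and 0.16 without 24 h replicate 3. Fbxo32 at 6 h was -0.00414 with limma and pseudocount 0.1 and -0.21 without replicate 2. Over the fits that each left out a single library, Fbxo32 ran from -0.05 to 0.15 at 10 min (-0.01 without 10 min replicate 1), reached 0.04, 0.03 and 0.03 at 1 h and ran to 0.45 at 6 h. Trim63 ran from -0.02 to 0.15 at 10 min, from -0.25 to 0.09 at 1 h and from -0.13 to 0.05 at 6 h (0.03 without sham replicate 2). Trim55 ran from -0.08 to 0.05 at 6 h and from -0.19 to 0.16 at 24 h, Fbxo40 from -0.06 to 0.03 at 1 h, and Klhl38 from -0.07 to 0.2 at 10 min (-0.02 without 10 min replicate 3) and from -0.33 to 0.01 at 1 h. The cause was not tested.

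With the replicate block the counts of members called were the same as without it in every comparison (0, 0, 2, 2 and 9 against sham; 0, 2, 3 and 9 between consecutive times; 9 at any time; 2, 5 and 6 relative to the markers). Deviations from group means of same-numbered libraries correlated at a mean r of 0.0156 (45 pairs, -0.256 to 0.252). For different numbers the mean was -0.0075 (90 pairs, -0.355 to 0.451). This gives no sign that the numbers pair the mice, and it cannot exclude a shared surgery or preparation day. Low depth limits Mstn, with at most 27 counts in a library.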
